A study of Mus musculus with 8 samples.

Results

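The genes that make, sense, take up and export cholesterol were examined in Tregs, the regulatory class of CD4+ lymphocytes that holds back immune responses. They were chosen as a list of 30 genes of the pathway, and every probe set named for exactly 1 of them was used. Of the 30 genes, 27 were measured, by 29 of the 21640 probe sets with 1 gene symbol, because Idi1 and Fdft1 had 2 probe sets each. They comprise 17 synthesis enzymes, 5 genes that encode SREBP transcription factors or their regulators, 2 genes of uptake and transfer and 3 of efflux and its control. Acat2, Nr1h2 and Soat1 lacked a probe set of this kind and were not analysed here.

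Tregs came from bone marrow chimeras of 2 groups with 4 biological replicates each, and each replicate was run on 1 Affymetrix array. IIKO chimeras were lethally irradiated CD3ε-/- mice given marrow of IIKO mice, and their Tregs are labelled as missing peripheral contact between T cell receptor (TCR) and MHC class II. WT chimeras were CD3ε-/- mice irradiated in the same way and given WT marrow, and their Tregs are labelled as keeping that contact. Both groups therefore share the CD3ε-/- recipient, which lacks a chain needed by the TCR, and only cells derived from the marrow carry the donor genotype. The strain is given as C57BL/6 and the age as 6 to 8 weeks. CD4+ TCRβ+ CD25+ cells were sorted from peripheral lymph nodes and spleen, after magnetic enrichment, 28 days after marrow transfer, and 100 ng of RNA was labelled. The labels do not say how many mice a replicate pools.

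All values are log2 expression levels as deposited, so a difference of 1 is a 2-fold change, and array medians lay between 6.96 and 7.03. The 7 Treg markers, among them Foxp3 and Il2ra, were between 10.53 and 12.39 in every array, and their mean ran from 11.60 to 11.70 in IIKO and from 11.58 to 11.62 in WT chimera arrays. Ctla4, Ikzf2 and Il2ra were higher in every IIKO than in every WT array, but none of the 7 passed (limma, lowest adjusted p = 0.216). Over all probe sets tested, 2.89% were higher in IIKO without overlap. Levels of different probe sets cannot be set against one another, so these values give no purity. The mean of 7 myeloid and dendritic cell markers ran from 5.83 to 6.19 in IIKO and from 5.91 to 6.17 in WT chimera arrays. The mean of 4 B cell markers ran from 6.16 to 6.24 in IIKO and from 6.01 to 6.40 in WT chimera arrays, and that of 5 NK and CD8 T cell markers from 6.19 to 6.54 in IIKO and from 6.35 to 6.64 in WT chimera arrays. Of the NK and CD8 T cell markers, Cd8a and Klrb1c were lower in every IIKO than in every WT array. Neither passed (limma, adjusted p = 0.277 and 0.321), and 7.44% of all probe sets tested were lower in IIKO without overlap. The B cell and the myeloid and dendritic cell markers all overlapped between groups. In RNA of a sorted population, fewer cells of a type and less RNA per cell cannot be told apart.

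Cells build cholesterol from acetyl-CoA through mevalonate, isoprenoid units, squalene and lanosterol. When membranes hold little sterol, the escort protein SCAP carries SREBP from the endoplasmic reticulum to the Golgi, where it is cleaved and freed to switch on the synthesis genes; INSIG proteins hold SCAP back when sterol is plentiful. Oxysterols activate the LXR receptors, which switch on the exporters ABCA1 and ABCG1 and the ubiquitin ligase MYLIP. T cells are known to raise synthesis when they are activated, and the mevalonate pathway is known to support Treg function in mice.

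None of the 29 member probe sets passed the test between IIKO and WT chimera Tregs (limma, Benjamini-Hochberg adjusted over 21640 probe sets, threshold 0.05). Of all probe sets tested, 0.273% passed. The lowest adjusted p among the members was 0.174, for Abcg1. At an unadjusted limma p under 0.05 there were 4 members, or 13.8%, against a background of 16.9%. These were Stard4, with a higher mean in the IIKO chimeras, and Abcg1, Scap and 1 of the 2 probe sets of Idi1, with lower means. The background was 5.37% in the higher and 11.6% in the lower direction. In 4 members, Idi1 (the same probe set), Srebf1, Scap and Abcg1, every IIKO array lay below every WT array; over all probe sets the groups did not overlap for 10.3%, with IIKO higher for 2.89% and IIKO lower for 7.44%. With 29 probe sets these counts are small, and nothing particular to the members is read from them.

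Of the members' differences 15 were above 0 and 14 below, and their median was 0.01. Over all probe sets tested the median was -0.04 and 62.2% lay below 0. Sign varied with brightness, since 45.8% of the 10820 brighter probe sets and 78.5% of the 10820 dimmer ones lay below 0, and 24 of the 29 members were among the brighter ones. Without WT array 4 the members split into 9 positive and 20 negative differences, a change that leaving out no other array produced. The spread between arrays limits what could be seen. The 95% confidence interval reached 0.24 on either side for the median member and 0.28 for the median synthesis enzyme, against 0.16 for the median of all probe sets.

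**Figure D1:**
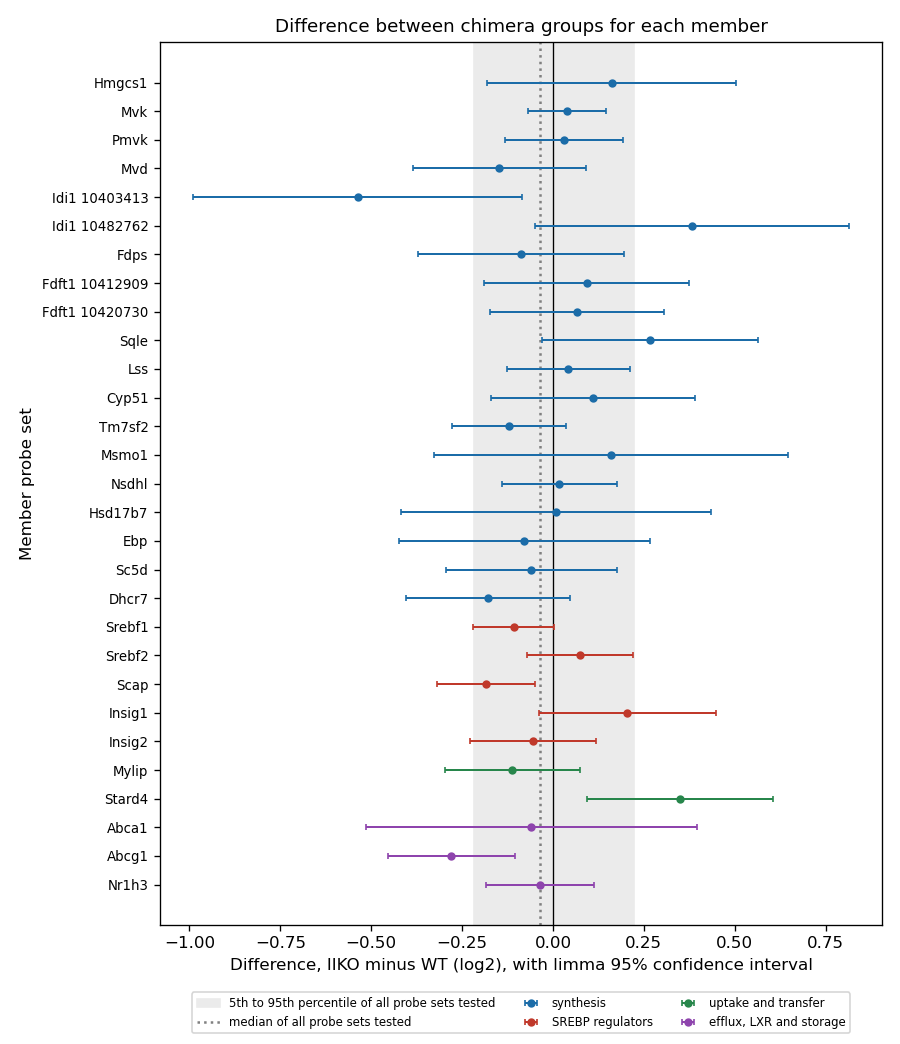
The horizontal axis gives the difference between IIKO and WT chimera Tregs (log2, IIKO minus WT) and each row is 1 member probe set, with points for the fitted difference and bars for limma's 95% confidence interval, coloured by role. The grey band runs from the 5th to the 95th percentile of all probe sets tested; 4 member intervals do not reach 0 (Idi1 10403413, Scap, Stard4 and Abcg1), and none of the 29 members passed after adjustment.

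Among the synthesis enzymes, 12 of 19 probe sets had a positive and 7 a negative difference, with a median of 0.03, and none passed. The early steps make the isoprenoid unit. Hmgcs1, which makes HMG-CoA, was at 9.15, 9.06, 8.61 and 8.45 in IIKO chimera arrays 1 to 4, against 8.86, 8.66, 8.61 and 8.49 in WT chimera arrays 1 to 4. The IIKO arrays spanned the whole WT range and beyond, and the difference of 0.16 ± 0.15 (SE) had an adjusted p of 0.6 (limma). Mvk and Pmvk, the kinases that phosphorylate mevalonate, differed by 0.04 and 0.03, with 95% confidence intervals of -0.07 to 0.15 and -0.13 to 0.19. Mvd, which decarboxylates the product, was at 8.21, 8.28, 8.15 and 8.22 in IIKO chimeras, against 8.52, 8.43, 8.50 and 8.00 in WT chimeras. Of the WT arrays, 3 lay above every IIKO array and WT array 4 lay below them, so that the difference was -0.15 with all arrays and -0.27 without WT array 4 (limma adjusted p = 0.486 and 0.165, unadjusted p = 0.195 and 0.00135).

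Idi1, the isomerase that readies the isoprenoid unit for chain building, had 2 probe sets that pointed in opposite directions. Probe set 10403413 was at 6.20, 7.03, 7.02 and 7.08 in IIKO chimeras, against 7.79, 7.18, 7.22 and 7.30 in WT chimeras. The groups did not overlap, but IIKO array 1 stood far below and WT array 1 above the rest. The difference of -0.54 ± 0.20 (SE) did not pass (limma, unadjusted p = 0.0246, adjusted p = 0.239), and it was -0.33 without IIKO array 1 and -0.40 without WT array 1. Probe set 10482762 was at 7.57, 7.67, 8.08 and 7.63 in IIKO chimeras, against 7.60, 7.82, 6.96 and 7.04 in WT chimeras. Here WT arrays 3 and 4 were low and WT arrays 1 and 2 lay among the IIKO arrays (0.38 ± 0.19, SE; adjusted p = 0.338). The annotation gives both probe sets the same accessions. Whether either one reads a near-identical copy of the gene could not be examined, and no direction is given for Idi1; the mean of both probe sets differed by -0.08.

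Fdps, which joins isoprenoid units into farnesyl diphosphate, differed by -0.09 with an interval of -0.37 to 0.20. Fdft1, the squalene synthase at the branch toward sterols, differed by 0.09 and 0.07 in its 2 probe sets. Sqle, the squalene epoxidase that controls flux into sterols, was at 8.60, 8.54, 8.35 and 8.19 in IIKO chimeras, against 8.24, 8.33, 8.27 and 7.77 in WT chimeras. WT array 4 was well below the other WT arrays, and 3 of 4 IIKO arrays lay above all WT arrays. The difference was 0.27 ± 0.13 (SE, limma adjusted p = 0.334), and 0.14 without WT array 4 (adjusted p = 0.532).

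Lss, which closes the ring to make lanosterol, differed by 0.04. The late steps turn lanosterol into cholesterol. Cyp51, the lanosterol demethylase, differed by 0.11, Tm7sf2, a sterol reductase, by -0.12, and Nsdhl, a dehydrogenase of the demethylation steps, by 0.02. Msmo1, the methylsterol oxidase, was at 8.29, 8.35, 7.77 and 7.57 in IIKO chimeras, against 8.15, 8.05, 7.89 and 7.28 in WT chimeras. Hsd17b7, a keto-reductase of the same steps, was at 7.83, 8.10, 7.75 and 7.38 in IIKO chimeras, against 7.83, 8.14, 7.80 and 7.25 in WT chimeras. Both genes ranged widely within each group, and their differences were 0.16 and 0.01 (intervals -0.33 to 0.65 and -0.42 to 0.43). Array 4 was the lowest of its group for both genes, in IIKO and in WT chimeras. Ebp, a sterol isomerase, and Sc5d, a desaturase, differed by -0.08 and -0.06. Dhcr7, which catalyses a last reduction to cholesterol, was at 7.59, 7.78, 7.69 and 7.91 in IIKO chimeras, against 8.17, 7.97, 7.75 and 7.81 in WT chimeras, and the groups overlapped (-0.18 ± 0.10, SE; limma adjusted p = 0.385).

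As a group, the synthesis genes had near-equal means in both groups. The mean of the 19 probe sets was 8.13, 8.20, 8.12 and 8.04 in IIKO chimera arrays 1 to 4, against 8.28, 8.17, 8.12 and 7.90 in WT chimera arrays 1 to 4, or 8.13 ± 0.07 and 8.12 ± 0.16 (SD, n = 4 arrays each). The wider WT spread rested on WT array 4, without which the WT SD was 0.08 over 3 arrays. WT array 4 was the lowest WT array for 11 of the 19 probe sets and the highest for none, while over all probe sets it was the lowest for 26.1% and the highest for 26.9%. WT array 1 was the highest for 11 of 19, against 27.0% of all probe sets. IIKO array 4 was the lowest IIKO array for 7 of 19, against 21.1%, and the highest for 5 of 19, against 31.2%. The mean of the myeloid markers was highest of the WT arrays in WT array 4, at 6.17, and its part in these values was not tested. Without WT array 4, the median difference of the synthesis enzymes was -0.02, against 0.03 with all arrays.

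**Figure D2:**
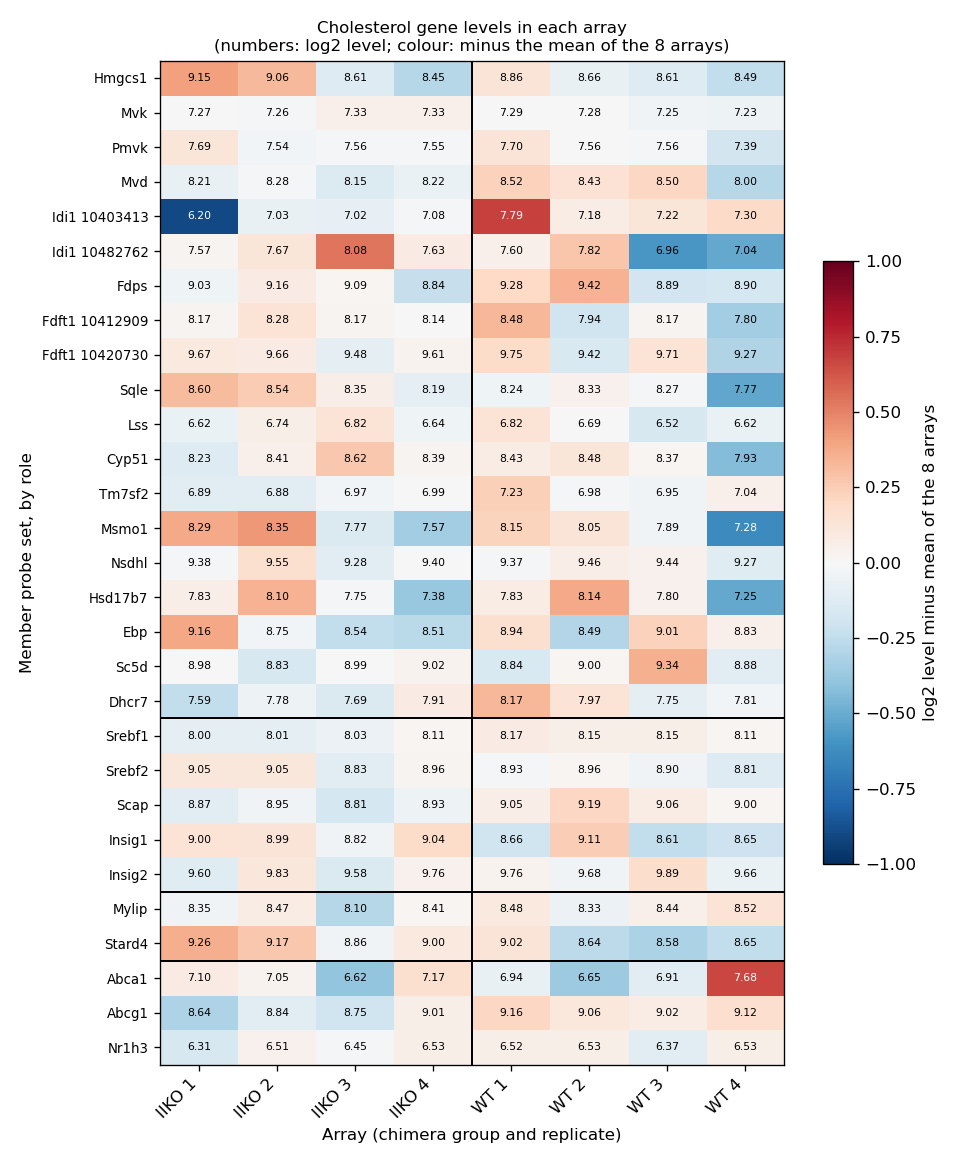
Each row is 1 member probe set, grouped by role with lines between synthesis, SREBP and its regulators, uptake and transfer, and efflux. Each column is 1 array, IIKO chimeras left of WT chimeras. Numbers are log2 levels and colours show the level minus the mean of the 8 arrays. In the synthesis block the column of WT array 4 is mostly blue, with the lowest WT value in 11 of 19 rows.

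Promoter letters are shown for 4 genes of the SREBP pathway, to show where the motifs searched lie. Of these, 3 are synthesis enzymes whose arrays spread widely. An exact match to the sterol regulatory element is in 1 of the 4 windows, that of Hmgcs1. The windows are the 250 bases before the annotated start, from RefSeq on GRCm38.p6, printed 5′ to 3′ on the gene's strand. Hmgcs1 lies at chr13:119690101-119690350 on the plus strand, Idi1 at chr13:8885356-8885605 on the plus strand, Msmo1 at chr8:64733579-64733828 on the minus strand and Insig1 at chr5:28071162-28071411 on the plus strand. Capitals mark matches, on either strand, to TCACNCCAC (sterol regulatory element), CCAAT (bound by NF-Y) or GGGCGG (bound by Sp1); on the reverse strand the last 2 read ATTGG and CCGCCC.
Hmgcs1: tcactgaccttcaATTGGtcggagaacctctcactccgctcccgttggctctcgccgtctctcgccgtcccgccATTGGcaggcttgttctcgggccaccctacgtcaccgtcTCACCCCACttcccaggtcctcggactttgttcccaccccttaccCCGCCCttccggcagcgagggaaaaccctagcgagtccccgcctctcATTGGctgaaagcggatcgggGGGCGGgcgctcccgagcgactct
Idi1: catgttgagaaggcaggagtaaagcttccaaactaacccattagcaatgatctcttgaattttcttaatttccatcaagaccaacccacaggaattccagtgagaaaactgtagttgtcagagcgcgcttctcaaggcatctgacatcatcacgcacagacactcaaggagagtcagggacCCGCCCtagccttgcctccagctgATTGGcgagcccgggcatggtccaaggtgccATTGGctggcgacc
Msmo1: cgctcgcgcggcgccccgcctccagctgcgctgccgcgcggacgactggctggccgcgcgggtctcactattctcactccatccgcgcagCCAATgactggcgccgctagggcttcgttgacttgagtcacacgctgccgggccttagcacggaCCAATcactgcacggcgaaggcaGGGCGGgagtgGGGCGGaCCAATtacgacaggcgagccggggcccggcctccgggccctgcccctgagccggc
Insig1: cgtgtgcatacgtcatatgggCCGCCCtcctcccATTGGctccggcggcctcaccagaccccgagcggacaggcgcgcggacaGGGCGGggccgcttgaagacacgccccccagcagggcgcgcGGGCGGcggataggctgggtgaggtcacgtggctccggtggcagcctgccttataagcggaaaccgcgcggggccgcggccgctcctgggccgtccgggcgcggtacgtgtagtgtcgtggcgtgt

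In these windows Hmgcs1 held 1 match to the sterol regulatory element with 3 CCAAT and 2 GGGCGG boxes. Idi1 held 2 CCAAT and 1 GGGCGG box, Msmo1 3 and 2, and Insig1 1 and 3. The search over all members covered the 250 bases before and 50 bases after each annotated start. Of the 27 member genes measured, 22 had 1 or more such windows, 31 in all; Fdps, Fdft1, Sqle, Stard4 and Abcg1 had none. CCAAT was found in 14 of 14 synthesis genes, against 41.1% of all 27025 genes with a window. GGGCGG was found in 13 of these 14, against 38.2%, and the sterol regulatory element in 1 of 14, Hmgcs1, against 1.44%. The direct repeat bound by LXR was found in no member window and in 4 of all genes. Matches of different motifs overlapped nowhere in the members' windows. These are matches of letters and no test was made of them.

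Of the 5 genes of SREBP and its regulators, none passed, 2 had positive and 3 negative differences, and the median was -0.06. Scap, the sterol-sensing escort of SREBP, was at 8.87, 8.95, 8.81 and 8.93 in IIKO chimeras, against 9.05, 9.19, 9.06 and 9.00 in WT chimeras. Every IIKO array lay below every WT array, IIKO array 2 and WT array 4 being the nearest. Its difference of -0.18 ± 0.06 (SE), a level 1.14-fold lower, had an interval of -0.32 to -0.05 and did not pass (limma, unadjusted p = 0.0124, adjusted p = 0.206). Among the 20 nearest measured genes on chromosome 9, none passed and none lay under an unadjusted p of 0.05.

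Srebf1 encodes SREBP-1, which mainly drives fatty acid synthesis, and was at 8.00, 8.01, 8.03 and 8.11 in IIKO chimeras, against 8.17, 8.15, 8.15 and 8.11 in WT chimeras. The groups met at 8.11 without overlapping (-0.11 ± 0.05, SE; limma unadjusted p = 0.0564, adjusted p = 0.304). Srebf2 encodes SREBP-2, the main driver of cholesterol synthesis, and was at 9.05, 9.05, 8.83 and 8.96 in IIKO chimeras, against 8.93, 8.96, 8.90 and 8.81 in WT chimeras (0.07, interval -0.07 to 0.22).

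Insig1, an INSIG protein that is itself an SREBP target, was at 9.00, 8.99, 8.82 and 9.04 in IIKO chimeras, against 8.66, 9.11, 8.61 and 8.65 in WT chimeras. All IIKO arrays lay above WT arrays 1, 3 and 4, and WT array 2 lay above all of them. The difference was 0.20 ± 0.11 (SE, limma adjusted p = 0.358) with all arrays, and 0.32 without WT array 2 (unadjusted p = 0.00104, adjusted p = 0.164). Insig2, its paralog, was at 9.60, 9.83, 9.58 and 9.76 in IIKO chimeras, against 9.76, 9.68, 9.89 and 9.66 in WT chimeras (-0.06, interval -0.23 to 0.12).

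Of the genes of uptake and transfer, Stard4 had a higher and Mylip a lower mean in IIKO chimeras, and neither passed. Stard4, a soluble protein that moves cholesterol between membranes and is an SREBP-2 target, was at 9.26, 9.17, 8.86 and 9.00 in IIKO chimeras, against 9.02, 8.64, 8.58 and 8.65 in WT chimeras. All IIKO arrays lay above WT arrays 2, 3 and 4, while WT array 1 lay among them. Its difference of 0.35 ± 0.11 (SE), or 1.27-fold, had an interval of 0.09 to 0.61 (limma, unadjusted p = 0.0123, adjusted p = 0.206). As each array was left out in turn it stayed between 0.29 and 0.45, with an unadjusted p of at most 0.0378 and an adjusted p of at least 0.171. Mylip, the ligase that marks lipoprotein receptors for breakdown, was at 8.35, 8.47, 8.10 and 8.41 in IIKO chimeras, against 8.48, 8.33, 8.44 and 8.52 in WT chimeras (-0.11 ± 0.08, SE; limma adjusted p = 0.503).

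All 3 measured genes of efflux had negative differences, and none passed. Over all probe sets tested 62.2% lay below 0, and of the 10820 dimmer ones, which include Abca1 and Nr1h3, 78.5%. Nothing particular to efflux is read from the shared sign. Abcg1, which exports cholesterol to lipoprotein particles, was at 8.64, 8.84, 8.75 and 9.01 in IIKO chimeras, against 9.16, 9.06, 9.02 and 9.12 in WT chimeras. The groups did not overlap, with IIKO array 4 just under the lowest WT array. The difference was -0.28 ± 0.08 (SE), a level 1.21-fold lower, with an interval of -0.45 to -0.10 (limma, unadjusted p = 0.00521, adjusted p = 0.174). As each array was left out it ran from -0.35 to -0.22 with an adjusted p between 0.0878 and 0.347. Abcg1 lies on chromosome 17, which also carries the MHC. Of its 20 nearest measured genes, 2 passed the test, Glo1 and Dnah8, and 6 lay under an unadjusted p of 0.05; 85 measured genes lie between it and H2-Ab1. Any effect of where the gene lies and an effect of lost TCR contact cannot be told apart for Abcg1.

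Abca1, the exporter that loads cholesterol onto apolipoprotein, was at 7.10, 7.05, 6.62 and 7.17 in IIKO chimeras, against 6.94, 6.65, 6.91 and 7.68 in WT chimeras. WT array 4 stood above all others, and the difference of -0.06 had a wide interval of -0.51 to 0.40. It was 0.15 without WT array 4 and 0.06 without IIKO array 3. The myeloid marker mean was the highest of the WT arrays in WT array 4 (6.17), where Abca1 was highest, though not every marker was highest there. Of the IIKO arrays the marker mean was highest in IIKO array 3 (6.19), where Abca1 was lowest. Any part of myeloid cells in the Abca1 values was not tested. Nr1h3, which encodes LXRα, was at 6.31, 6.51, 6.45 and 6.53 in IIKO chimeras, against 6.52, 6.53, 6.37 and 6.53 in WT chimeras. Its difference of -0.04 was 0.01 with array medians centred and 0.03 after a further quantile normalization, so it has no stable sign.

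**Figure D3:**
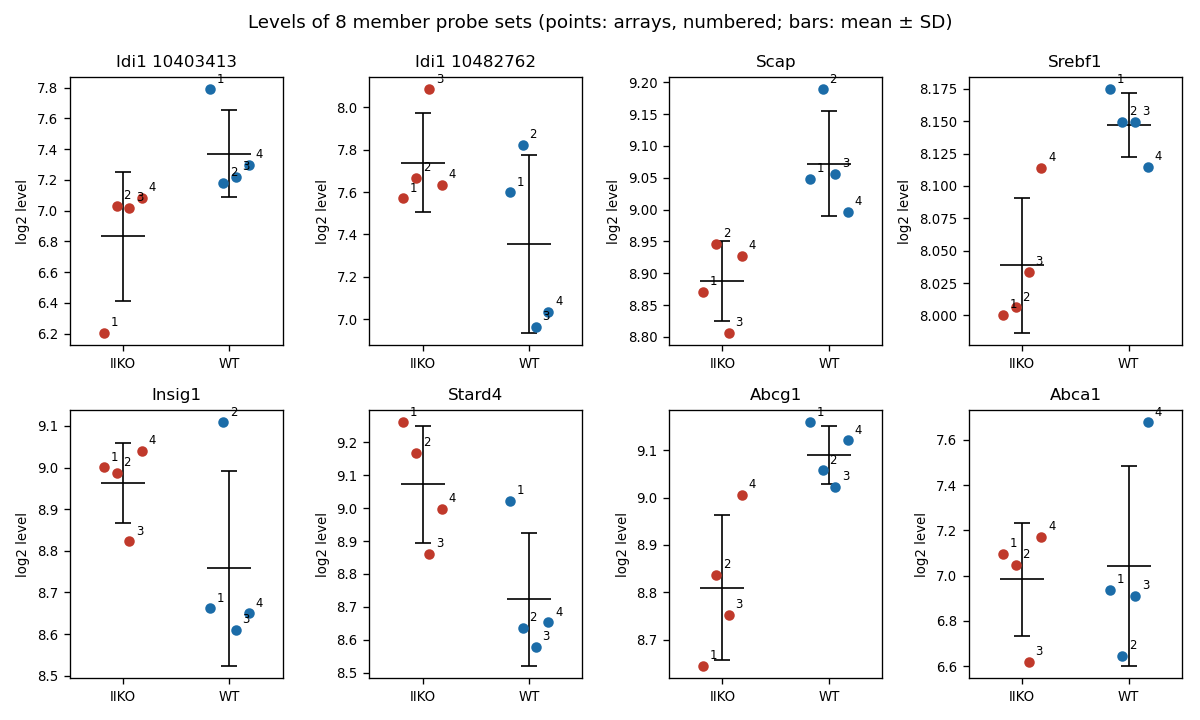
Each panel shows the log2 level (vertical axis, own range) of 1 member probe set in the 4 IIKO chimera arrays (red, left) and the 4 WT chimera arrays (blue, right), numbered by replicate, with bars for mean ± SD. The groups are separate for Idi1 10403413, Scap, Srebf1 and Abcg1, while single arrays stand apart for Insig1 (WT 2), Stard4 (WT 1) and Abca1 (WT 4).

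Genes of the same pathway outside the 27 were read from a list of 54 genes, of which 49 were measured by 51 probe sets. Of these probe sets 1 passed, with a lower level in IIKO, and 50 did not pass. Over all probe sets tested, 0.273% passed, and 0.111% passed in the lower direction. The list was drawn up with earlier results of these data known, so this call is not a finding of the list. The gene that fell was Npc1, the membrane protein that releases cholesterol from lysosomes. It was at 8.72, 8.96, 8.65 and 8.73 in IIKO chimeras, against 9.55, 9.55, 9.50 and 9.39 in WT chimeras. All IIKO arrays lay well below the lowest WT array (-0.73 ± 0.07, SE, 1.66-fold lower; limma adjusted p = 0.00367). It passed whichever array was left out (adjusted p from 0.00168 to 0.0216). Its partner Npc2, which hands sterol to it inside the lysosome, differed by 0.03, and Lipa, the lysosomal lipase that frees cholesterol from its esters, by 0.08.

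At an unadjusted limma p under 0.05 there were 6 of these 51 probe sets, or 11.8%, against the background of 16.9%. Besides Npc1 they were Lrp1, a lipoprotein receptor (-0.12), Cyp46a1 and Cyp7b1, hydroxylases of oxysterol metabolism (-0.18 and -0.12), Gramd1a, a sterol carrier at membrane contacts (0.25), and Acly, which makes acetyl-CoA for lipid synthesis (0.26). Their adjusted p ran from 0.256 to 0.293 apart from Npc1. The 11 genes of SREBP-1-driven fatty acid synthesis, with 13 probe sets, had 8 positive and 5 negative differences and a median of 0.03. The 6 measured genes of SREBP processing and INSIG partners had 5 positive differences and 1 negative (median 0.08). The 7 LXR partners and targets, such as its partner receptors, had 6 and 1 (median 0.03). Of all probe sets tested 62.2% lay below 0, and of the 10820 brighter ones 45.8%. With so few genes, nothing particular to these lists is read from the splits. All 4 oxysterol enzymes had negative differences (median -0.14), as had 3 of the 4 measured lipoprotein receptors (median -0.08). The oxysterol enzymes were dim, with group means from 4.79 (Cyp7b1, IIKO) to 6.72 (Cyp27a1, WT). Lrp1 was at means of 6.57 in IIKO and 6.68 in WT chimeras. Since 78.5% of the 10820 dimmer probe sets lay below 0, nothing particular to these genes is read from the shared sign. The 7 genes of the isoprenoid branch had 3 positive and 4 negative differences (median -0.05), and the 10 of endosomal and intracellular transfer, Npc1 among them, 5 and 5 (median 0.01).

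**Figure D4:**
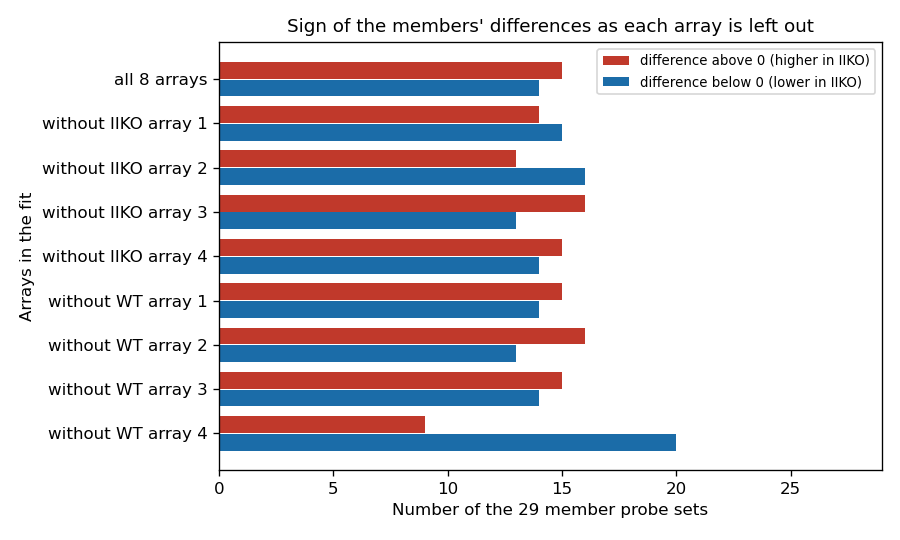
Bars count the 29 member probe sets (horizontal axis) whose difference was above 0 (red, higher in IIKO) or below 0 (blue, lower in IIKO), with all 8 arrays and with each array left out (vertical axis). The split is 15 and 14 with all arrays and 9 and 20 without WT array 4.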

How the data were processed

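Levels were measured on 8 Affymetrix arrays, 4 per group, as the titles give them. The authors deposited log2 levels of each probe set, for which the submitters' processing notes name affy and RMA, with versions not given in the sources used here. This method corrects background, brings arrays to common quantiles and summarizes probes. Scanner data were not used here, so background was not examined; 4 arrays per group limit the precision.

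Of 34760 probe sets, 21640 had 1 gene symbol in the platform annotation, 1321 several and 11799 none; only the first were used, with no filter on dim ones. A RefSeq table (GRCm38.p6) matched 21553 by gene identifier and gave chromosomes and neighbours (10 measured genes on either side). The fit was limma 3.58.1 in R 4.3.3 (IIKO minus WT, 2-sided, 6 residual degrees of freedom), adjusted over all 21640 by Benjamini-Hochberg with a threshold of 0.05, and was tested on simulated arrays. Labels call the samples biological replicates without naming separate mice, so p-values measure only spread among these samples, which may be technical. Replicate numbers were not taken as pairs. The members, lists and tests were chosen with earlier results of these data known. Every array's value is given, by rule, for members past the threshold, at an unadjusted p under 0.05, without overlap or with the largest difference either way in their role; further members were given in full after their values were seen; of the other pathway genes, those under 0.05 and Npc1 are named, and Npc2 and Lipa were named after their values were seen. The 4 promoters shown were chosen after levels and motif matches were seen. Alternatives were a threshold of 0.01, a replicate block, quantile normalization, median centring, the 10820 brighter probe sets, trended robust variance, array weights, 1 probe set or the mean per gene, all probe sets, and leaving out each array; for the other pathway genes, and for the spread of the synthesis mean, they were added after seeing the data. Figures used matplotlib 3.10.9.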

Additional observations from a re-analysis of the deposited data

Results flagged for a closer look

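In groups of 4 arrays, 1 array stood far from the other 3 in 7 of 66 groups examined, where chance alone marks about 1 in 20. In IIKO array 1, Pmvk was at 7.69, with the others between 7.54 and 7.56, and Idi1 (10403413) was at 6.20, with the others between 7.02 and 7.08. In WT array 4, Mvd was at 8.00 and Sqle at 7.77, below the other WT arrays at 8.43 to 8.52 and 8.24 to 8.33. Insig1 was at 9.11 in WT array 2, above the others at 8.61 to 8.66. Stard4 was at 9.02 in WT array 1, above the others at 8.58 to 8.65. Nr1h3 was at 6.37 in WT array 3, with the others between 6.52 and 6.53.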

How the results depend on the processing

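No member passed in any of the 18 alternatives, and Npc1 passed in all of them. The number of members at an unadjusted limma p under 0.05 was 4 with all arrays, 3 to 5 in the alternatives with 8 arrays, and 4 to 7 as each array was left out (7 without IIKO array 4 or WT array 2). Same-numbered arrays' deviations from their group means correlated over probe sets with r of 0.03, 0.01, -0.07 and 0.21 for numbers 1 to 4. The r of 0.21 for number 4 was the highest of all pairs of an IIKO and a WT array, the next being 0.085. Arrays 1 to 3 of either group did not correlate best with their own number, so the numbers were not taken as pairing. What the arrays numbered 4 may share was not tested. With the replicate number as a block the count was 4 and 0 members passed; the block changed no call at the adjusted threshold among the members or the other pathway genes. Which members made up the 4 differed, since with the block Idi1 10403413 had an unadjusted p of 0.0592 (0.0246 without it) and Sqle 0.00851 (0.0735 without it). Cyp7b1, Acly and Lrp1 had 0.0786, 0.0811 and 0.0687 with the block. After a further quantile normalization the unadjusted limma p was 0.132 for Cyp46a1, 0.302 for Cyp7b1 and 0.320 for Lrp1. There it was 0.0747 for Gramd1a and 0.0798 for Acly. With array medians centred, Cyp46a1, Cyp7b1 and Lrp1 had 0.0839, 0.209 and 0.186, and Gramd1a and Acly had 0.0128 and 0.0169. Among the members, the unadjusted limma p of Scap was 0.00222 after the quantile normalization and 0.0516 with medians centred. That of Srebf1 was 0.0325 and 0.234, and that of Insig1 0.187 and 0.0474. Over all probe sets, 59 passed as reported, 23 at a threshold of 0.01, 27 with the replicate block, 39 among all 34760 probe sets and 32 to 50 as each array was left out. It was 80 with array medians centred, 68 after a further quantile normalization, 65 with probe sets averaged per gene, 63 with array weights, 62 among the 10820 brighter ones, 60 with trended robust variance and 57 with 1 probe set per gene. The share of all probe sets below 0 was 62.2%, but 53.4% after a further quantile normalization and 46.0% with array medians centred, where the members split 14 to 15 and 13 to 16 below and above 0. Signs of some differences turned. Leaving out WT array 4 turned the most, those of Pmvk, both Fdft1 probe sets, Cyp51, Msmo1, Nsdhl, Hsd17b7 and Abca1. Not all of these were near 0, since Msmo1 was 0.16 and Cyp51 0.11 with all arrays, against -0.027 and -0.014 without WT array 4. Nsdhl was -0.033 and Nr1h3 0.033 after the quantile normalization, Nr1h3 was 0.012 with medians centred, and Idi1 10482762 was -0.077 as the gene's mean. The efflux median was -0.28 among the 10820 brighter probe sets, where Abcg1 alone remained. As each array was left out, differences ran from -0.025 to 0.080 for Pmvk, -0.16 to 0.14 for Hsd17b7, -0.076 to 0.011 for Nr1h3, -0.032 to 0.059 for Nsdhl, -0.19 to 0.15 for Abca1, -0.17 to 0.013 for Fdps, -0.0038 to 0.10 for Lss, -0.12 to 0.049 for Sc5d, -0.0081 to 0.22 and -0.024 to 0.14 for the probe sets of Fdft1, -0.014 to 0.17 for Cyp51 and -0.027 to 0.30 for Msmo1. The cause was not tested. Dim levels are limited by a background that was not examined.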
